A study of Mus musculus with 5 samples.

Results

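The acinar cells of the normal mouse pancreas were taken from 1 single-cell RNA library of a series that also holds 4 libraries of pancreatic tumours. A cell barcode of the normal library was kept if it had at least 200 genes and at most 20% of its UMIs (unique molecular identifiers, 1 per captured transcript) from mitochondrial genes. Members were selected on their own transcript levels: a barcode was called acinar if Cela1, Cela2a, Cela3b, Cpa1, Cpb1, Ctrb1, Ctrl, Prss2, Pnlip, Clps, Cel, Try4, Try5, Amy2a5 and 2210010C04Rik together made up at least 30% of its UMIs. By this rule 1607 of 2386 kept barcodes of the normal pancreas were acinar, of 10718 kept barcodes in the 5 libraries. The other kept barcodes of the normal pancreas numbered 779.

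The libraries were 3′ droplet libraries of untreated mice, 1 for each group. The early KIC mouse was 40 days old and the late KIC mouse 60 days old. The late KPfC mouse was 60 days old, the late KPC mouse 6 months old and the normal mouse 60 days old. The strain was C57BL/6 for late KPfC and a mixed C57BL/6 and FVB background for the 4 other groups. As these names are generally used, the alleles of KIC mice include a deletion of Cdkn2a, those of KPfC mice a deletion of floxed Trp53 and those of KPC mice a point mutation of Trp53. Cre under the Pdx1 or Ptf1a promoter generally drives these alleles in the pancreatic lineage, acinar cells included. The labels give the model names alone, and no allele for the normal mouse. The early KIC and normal groups differ in age as well as genotype, and in the sex-linked transcripts given below. The parts of these differences cannot be told apart. With 1 library per group no difference between groups has a replicate check, and no test was run. Intervals given below are exact 95% intervals that cover counting error alone.

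Acinar cells make up most of the exocrine pancreas. They build digestive enzymes and inactive precursors of proteases (zymogens) on a dense rough endoplasmic reticulum, pack them in zymogen granules and release them when cholecystokinin or acetylcholine arrives. A transcription factor complex of Ptf1a and Rbpjl with an E-box partner, with Nr5a2 and Bhlha15 (Mist1), is known to keep their gene program in mouse. In pancreatitis and around pancreatic tumours acinar cells are known to raise secreted lectins of the Reg family and can take on duct-like features.

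The acinar share of kept barcodes was 13.8% (12.68 to 14.98) in early KIC, at 487 of 3529, and 67.4% (65.4 to 69.2) in normal pancreas. The late KIC library had 4 such barcodes among 836. The late KPfC library had 0 of 2933, which by a limit of 3 counts allows a share of up to 0.102%, and the late KPC library 0 of 1034, which by the same limit allows up to 0.290%. The part of cell recovery in dissociation was not tested, and the shares are not those of the tissue itself.

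The early KIC acinar barcodes had a median of 1634 UMIs and 386 genes. The normal acinar barcodes held 9480064 UMIs, with 2286 in the shallowest barcode, a median of 4061 and 77069 in the deepest. The median barcode showed 395 genes, since most of its UMIs came from few genes. No barcode of the deposited early KIC library was under 1159 UMIs and none of the normal library under 2286, so the depth at which barcodes enter differs between the libraries. Between the normal and early KIC libraries 11 barcode sequences were shared, and 1 was acinar in both. The design text speaks of the normal mouse in the singular. The normal acinar barcodes held 345 UMIs of Xist, a transcript of female cells, and 34 UMIs of Y-linked genes (Ddx3y, Uty, Kdm5d, Eif2s3y). Xist without a Y-linked UMI was found in 150 members, a Y-linked UMI without Xist in 23 and both in 4. The remaining 1430 had neither, so the members could not be divided by sex and no result is given without one of the sexes. In the other 779 normal barcodes Xist alone was found in 508, a Y-linked UMI alone in 100, both in 8 and neither in 163. Xist and Y-linked UMIs thus lay mostly in different barcodes. The normal library therefore probably holds cells of more than 1 mouse, although the design text names 1. The early KIC acinar barcodes had 437 Xist UMIs and 0 Y-linked UMIs.

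The share of the rule genes chose the members and is given as a description. The early KIC acinar barcodes had a median of 49.5% and a highest value of 69.2%. In the normal members the share was 30.4% in the lowest, 70.1% in the median and 80.7% in the highest. Just inside the threshold of the normal library lay barcodes at 30.4144% and 30.416%, and just outside it barcodes at 29.6572% and 29.5286%. Most normal members therefore lay above the highest early KIC barcode of this class.

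**Figure D1:**
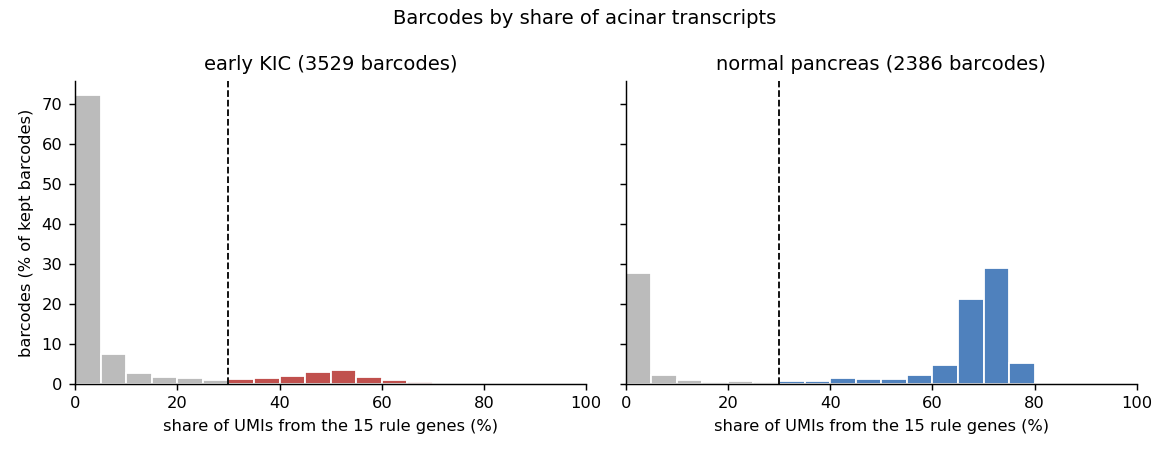
Share of kept barcodes (vertical axis, percent) by the share of their UMIs that came from the 15 rule genes (horizontal axis, percent, bins of 5), in early KIC (left, 3529 barcodes) and normal pancreas (right, 2386). Coloured bars are acinar by the rule, grey bars are not, and the dashed line is the 30% threshold; in normal pancreas 1320 of 1607 acinar barcodes lie at 65% or above.

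The 5 marker genes Cpa1 (carboxypeptidase A), Cela3b (an elastase), Ctrb1 (chymotrypsinogen B), Prss2 (an anionic trypsinogen) and Pnlip (pancreatic lipase) were found in each of the 1607 members. Ctrb1 was the most abundant transcript, with 15.1% of all UMIs of the members. In single members it made up 4.03% at the lowest, 15.8% in the median and 28.4% at the highest. Prss2 had 6.78% of the UMIs, Cela3b 3.97%, Pnlip 3.90% and Cpa1 2.79%. Prss2 ranged between 1.97% and 10.4% over single members, with a median of 6.66%. These genes are among those that the rule used, so their presence is no independent check of the label.

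A list of 45 secretory genes, of which the 15 rule genes are a part, took 82.9% of all UMIs of the members. Shares in this and the next 2 paragraphs are of all UMIs, and since 1 UMI stands for 1 molecule tagged at its 3′ end they can be set beside each other without regard to transcript length. Of the 45 genes 44 had UMIs in the members. The 4 most abundant, Ctrb1, Clps, Cela2a and Prss2, came to 36.8%, and 20 genes were found in every member. Dnase1, a deoxyribonuclease, had 0 UMIs.

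Proteases led. Trypsins, which activate the other zymogens, took 18.5% of the UMIs, chymotrypsins 17.4%, elastases 15.04% and carboxypeptidases 5.62%. Among the trypsin genes Prss2 was followed by Try5 at 4.31%, 2210010C04Rik at 3.69% and Try4 at 3.39%. Try5 spread widely over single members, 0.249% in the lowest, 3.52% in the median and 22.4% in the highest. Cela2a had 6.85% and Cela1 4.21%. The chymotrypsin-like protease Ctrl had 2.21% and Cpb1, carboxypeptidase B, 2.21%.

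Lipid digestion took 15.4% of the UMIs. Clps, the colipase that anchors pancreatic lipase on fat droplets, had 8.13%, above Pnlip itself. In single members Clps had 0.662% at the lowest, 8.67% in the median and 24.9% at the highest. The bile salt-activated lipase Cel had 0.918%, and Pnliprp1, a lipase-related protein, 1.78%. Sycn (syncollin, a granule membrane protein) led the granule proteins at 3.82%, with Zg16, a granule lectin, at 1.24%. Reg1, a secreted lectin, had 1.60% and Spink1, the trypsin inhibitor, 0.582%. Amylases and nucleases came to 2.23%, of which Rnase1, a secreted ribonuclease, was 1.73%. The amylase genes Amy2a2, Amy2a3 and Amy2a4 share all 302 windows of 99 bases in the last 400 bases of their transcripts with each other in GENCODE M21. Reads that match several genes may thus have been lost, and the low shares of Amy2a2, Amy2a3 and Amy2a4 are uncertain. The amylase genes Amy2a5 and Amy1 share 0 of their 302 windows with another gene. The trypsin genes Prss3, Gm10334, Gm5771 and Prss1 also share windows with each other (65.6%, 47.4%, 49.0% and 23.8% of them), and Cela2a shares 70.2% with an annotated transcript that starts at Ctrc and runs through Cela2a.

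**Figure D2:**
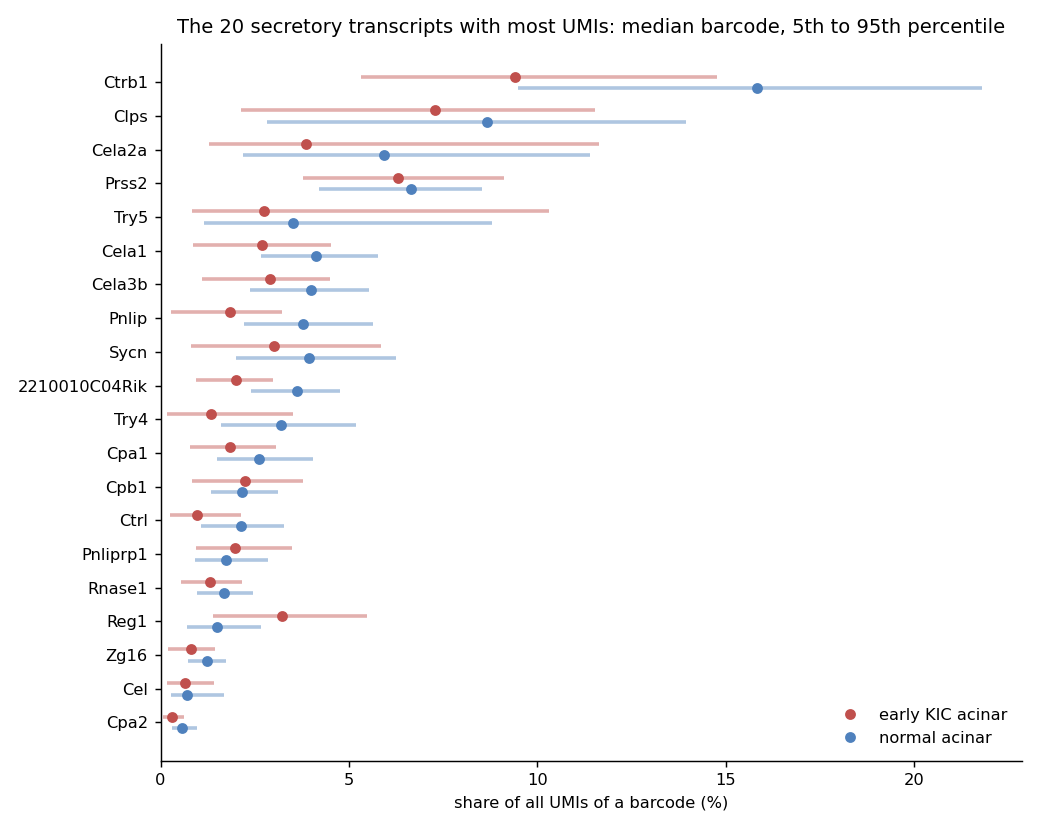
Share of all UMIs of a barcode (horizontal axis, percent) for the 20 secretory genes with most UMIs, ordered by their UMIs in normal acinar barcodes. Points are the median barcode and lines run between the 5th and the 95th percentile of barcodes, for early KIC acinar (upper, 487) and normal acinar (lower, 1607); the normal median of Ctrb1 is 15.8%, and that of Reg1 is 3.22% in early KIC and 1.49% in normal.

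Secretory transcripts were also found outside the members. They took 4.67% of the UMIs of the other 779 barcodes of normal pancreas and 4.62% in the other barcodes of early KIC. Among 36 secretory genes with at least 50 UMIs in the other normal barcodes, the level per non-secretory UMI was 79.4-fold (Klk1) to 126-fold (Dmbt1) higher in the members, with a median of 103-fold. The log10 shares of these genes in members and other barcodes followed each other with a Pearson r of 0.998, a correlation over genes that share libraries. Secretory UMIs of the other barcodes thus came in close to the members' proportions, and the part of RNA free in the suspension was not tested. The gene 1810009J06Rik, on the trypsin list and at chr6:40964754-40968435 on the plus strand (GENCODE M21, GRCm38), stood apart. It had 386 UMIs in the members and 0 in the other normal barcodes.

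That gene was found in few members. It had a UMI in 32 of 1607, and the 17 members with most of it held 371 of its 386 UMIs. One member had 126 UMIs of it, and the highest share in a member was 1.63% of all UMIs. In early KIC it had 160 UMIs in 22 of 487 acinar barcodes. The neighbouring Gm2663 had 117 UMIs in 20 normal members, 14 of which also had 1810009J06Rik. The pair share 65.6% to 67.2% of their end windows, so they cannot be fully separated. Ctrc, a chymotrypsin that degrades trypsinogen, was patchy too, with the limit that its annotated transcript overlaps Cela2a. It had no UMI in 398 members and a UMI in 1209, against 170 of the 779 other barcodes at a median of 4591 UMIs. In the members it stood at 0.0334% of UMIs in the median and reached 1.76% in the highest. The 17 members with most Ctrc held 2587 of its 11956 UMIs, or 21.6%.

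The members differed in their enzyme mix by more than the sampling of UMIs gives. By the sex-linked counts above, the normal library probably holds different mice. The part of differences between mice in this spread, and in the correlations and groups below, was not tested. Each of the 1607 members was thinned to 500 secretory UMIs, and the variance of each gene over members was divided by the binomial variance at that depth. Of 36 genes with a mean of at least 0.2 UMIs, 12 had a ratio of at least 2. Try5 had the largest, 11.8, with 1.2% of secretory UMIs at the 5th percentile of members, 4.2% in the median and 10.8% at the 95th. Clps followed at 9.73, Cela2a at 8.57 and Ctrb1 at 5.83. Clps ran between 3.4% and 17.3% over the same percentiles, and Cela2a between 2.6% and 13.8%. By contrast Prss2 had a ratio of 1.84 and ran between 5.4% and 10.8%. Thinned in the same way, the 486 early KIC acinar barcodes with enough UMIs gave ratios of 30.1 for Try5, 8.72 for Clps, 15.3 for Cela2a and 8.06 for Ctrb1.

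Some of the enzymes varied together. Over members, Cela2a went with Cel at a Pearson r of 0.544 and with Cpa1 at 0.405, and Tff2 (a trefoil peptide) went with Clps at 0.331. Cela2a and Ctrb1 were opposed at -0.607, and Cela2a and Clps at -0.573. Because the secretory UMIs of a member are fixed at 500, sampling alone gives -0.139 for the first of these pairs and -0.0974 for the second. Of 276 pairs among the 24 most abundant genes, 20 had an r of at least 0.2 and 32 one of -0.2 or below, around a median of -0.0258. In the 1320 members at 65% or above the same pairs gave 0.557 (Cel and Cela2a) and -0.642 (Cela2a and Ctrb1). These correlations are over barcodes of 1 library and describe it. Try5, the gene of the largest variance ratio, had an r of 0.0483 with Cela2a.

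Part of this held in the early KIC acinar barcodes, which come from another library. There Cela2a and Ctrb1 had an r of -0.610, and Cel and Cela2a 0.315. Of the 20 pairs at 0.2 or above in the normal members, 18 were above 0 in early KIC and 10 were at 0.2 or above. Of the 32 pairs at -0.2 or below, 25 were below 0 and 18 at -0.2 or below. Clps differed, with an r with Cela2a of -0.109 in early KIC and -0.573 in the normal members, and with Cel of 0.00149 and -0.420.

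Members were then put in 4 groups of 401 or 402 by their Cela2a share of secretory UMIs, a division chosen after the correlations were seen. Over the normal members, lowest group to highest, Cela2a stood at 3.75%, 6.18%, 8.46% and 11.8% of secretory UMIs. Amy2a5, an amylase and the gene with the steepest increase of those plotted, stood at 0.0563%, 0.0933%, 0.129% and 0.249% in the same groups. Cel, the lipase, stood at 0.584%, 0.811%, 1.01% and 1.64%. Ctrb1 ran the other way at 22.1%, 20.5%, 17.98% and 14.7%, and so did Clps at 13.7%, 10.8%, 9.65% and 7.21%. Dmbt1, a secreted mucosal defence protein, stood at 0.166%, 0.128%, 0.0892% and 0.0512%. Median depth was much the same, between 3847.5 and 4276.5 UMIs, and mitochondrial genes were 2.40% of non-secretory UMIs in the lowest group and 1.42% in the highest.

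**Figure D3:**
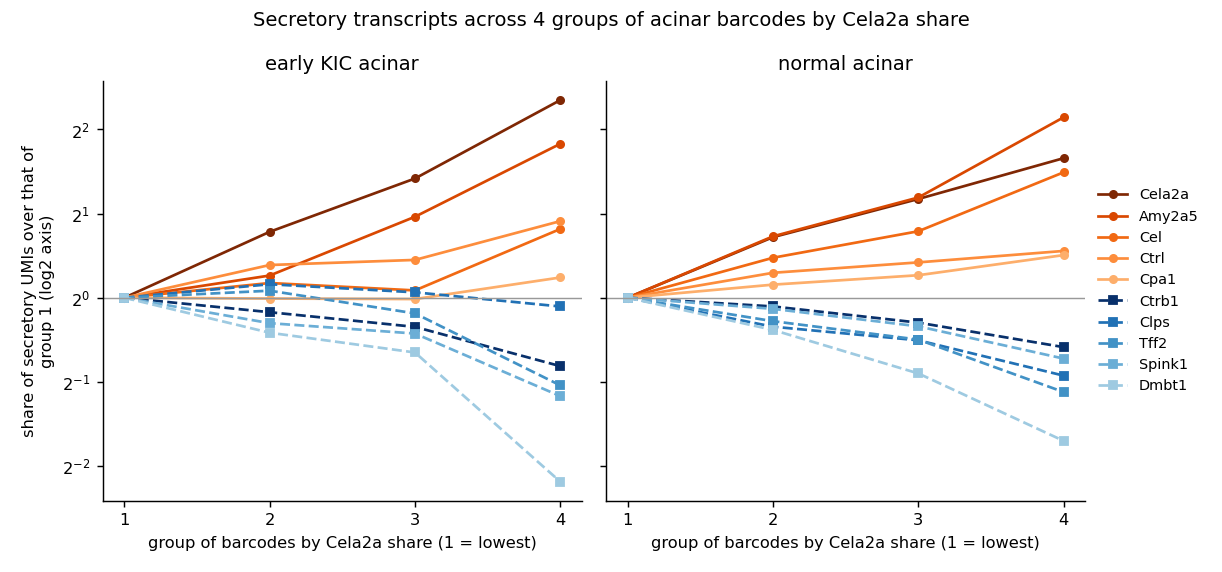
Share of secretory UMIs in each of 4 groups of acinar barcodes, divided by that of group 1 (vertical axis, log2), against the group by Cela2a share (horizontal axis, 1 lowest to 4 highest), for early KIC acinar (left, 487 barcodes) and normal acinar barcodes (right, 1607). Solid lines are genes that go with Cela2a and dashed lines genes that go against it; Clps stands at 10.996%, 12.3%, 11.5% and 10.2% in early KIC and at 13.7%, 10.8%, 9.65% and 7.21% in normal.

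Genes outside the secretory list were compared along the same gene. From here on such genes are given as UMIs per 1000000 non-secretory UMIs (CPM), so that enzyme transcripts do not set their level. The 1320 members at 65% or above were divided anew into 4 groups of 330 by Cela2a share. Among them 1221 genes had at least 50 UMIs over the highest and lowest group, of which 75 (6.14%) were at least 2-fold higher in the highest group and 44 (3.60%) at least 2-fold lower. Over all members, in the groups of 401 or 402, 63 of 1679 (3.75%) were higher and 73 (4.35%) lower, so the balance turned. In the members at 65% or above Slc25a5, the mitochondrial ADP/ATP carrier, had 992 CPM in the highest group and 280 in the lowest, 3.54-fold (2.70 to 4.70). Idh2, a mitochondrial isocitrate dehydrogenase, had 236 and 53.4 CPM, 4.42-fold (2.40 to 8.89). Srm, spermidine synthase, had 365 and 111 CPM. The ribosomal stalk gene Rplp1 was lower, at 9640 CPM in the highest group and 23193.2 CPM in the lowest, a ratio of 0.416 (0.398 to 0.434). Stard10, a lipid transfer protein, was at 171 and 618 CPM. In early KIC the ratio of highest to lowest group was 1.27 (0.787 to 2.11) for Slc25a5 and 0.587 (0.523 to 0.659) for Rplp1. The genes of this paragraph were chosen after their values were seen, and these ratios compare members of 1 library.

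Promoters were read because the genes of the mix move together and in opposition, and because the E-box and the TC-box are the known parts of the binding site of the Ptf1a complex. Of 36 secretory genes with at least 1000 UMIs, 27 matched the RefSeq promoter table (GRCm38.p6), and 24 had a start within 500 bases of the GENCODE gene start. The E-box CANCTG and the TC-box TTTCCC were searched on both strands in the 300 bases that run from 250 before to 50 after the start; the motifs can share 1 base at most. An E-box was found in 21 of 24 secretory promoters (87.5%), against 51.1% of 27018 promoters in the table. Among the 21, Amy2a2, Amy2a3 and Amy2a4 have the same 300 bases and Amy2a5 shares part of them, so these are not separate sequences. For secretory genes the entry nearest the GENCODE start was read, and for the table the first entry of each gene. A TC-box was found in 7 (29.2%), against 25.2%. An E-box followed within 25 bases by a TC-box on the same strand was found in 3 (12.5%), those of Ctrb1, Cela1 and Cpa1, against 1.02%. These 3 promoters are shown, with that of Cela2a, which holds each motif but not the pair and whose transcript is the most opposed to Ctrb1. The other genes with the pair, Cpa1 and Cela1, went with Cela2a over members (r of 0.405 and 0.309). Both were opposed to Ctrb1 (-0.364 and -0.338). Capitals mark the motifs, and each sequence runs 5′ to 3′ on the strand of the gene.
Ctrb1: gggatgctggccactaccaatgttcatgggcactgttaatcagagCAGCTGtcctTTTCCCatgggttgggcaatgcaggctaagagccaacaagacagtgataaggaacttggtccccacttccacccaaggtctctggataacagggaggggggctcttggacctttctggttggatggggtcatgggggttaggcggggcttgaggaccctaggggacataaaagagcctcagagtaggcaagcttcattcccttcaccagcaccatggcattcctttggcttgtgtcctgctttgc
Cela1: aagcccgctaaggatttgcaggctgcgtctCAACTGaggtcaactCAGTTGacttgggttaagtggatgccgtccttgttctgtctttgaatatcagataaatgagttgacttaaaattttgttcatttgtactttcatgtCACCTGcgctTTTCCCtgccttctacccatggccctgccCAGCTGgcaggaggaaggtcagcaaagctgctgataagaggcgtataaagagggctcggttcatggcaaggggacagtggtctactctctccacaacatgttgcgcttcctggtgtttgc
Cpa1: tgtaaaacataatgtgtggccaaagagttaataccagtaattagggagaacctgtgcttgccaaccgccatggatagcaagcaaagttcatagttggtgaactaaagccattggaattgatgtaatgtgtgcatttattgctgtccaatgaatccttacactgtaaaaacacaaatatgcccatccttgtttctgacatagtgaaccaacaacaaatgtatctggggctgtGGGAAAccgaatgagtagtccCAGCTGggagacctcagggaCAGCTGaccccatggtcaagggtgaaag
Cela2a: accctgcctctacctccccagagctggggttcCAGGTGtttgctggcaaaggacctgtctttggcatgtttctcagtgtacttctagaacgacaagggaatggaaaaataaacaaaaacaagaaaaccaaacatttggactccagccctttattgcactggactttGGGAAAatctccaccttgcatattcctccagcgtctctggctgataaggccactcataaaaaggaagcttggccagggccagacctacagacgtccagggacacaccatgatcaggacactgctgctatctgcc
The Ctrb1 promoter lies on the minus strand at chr8:111690961-111691260, that of Cela1 on the minus strand at chr15:100687871-100688170, that of Cpa1 on the plus strand at chr6:30638968-30639267 and that of Cela2a on the minus strand at chr4:141825956-141826255. In Ctrb1 the pair starts 205 bases before the transcript start and in Cela1 109 bases before it, with 4 bases between E-box and TC-box in each. In Cpa1 the pair lies on the opposite strand with 15 bases between its parts. A match is a run of letters, and no match says only that these letters are not in this window.

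The members were set beside the other 779 barcodes of normal pancreas, which hold islet, stromal and immune marker transcripts. Of 8141 genes with at least 50 UMIs over both, 1001 (12.3%) were at least 2-fold higher in the members and 2575 (31.6%) at least 2-fold lower, with an all-gene median log2 ratio of -0.44. Per 1000000 of all UMIs, where enzyme transcripts fill the members' total and each ratio is 0.179 times as large, 141 were higher and 7587 lower. Since the rule parted the same barcodes, this is a description. Pdia2, a pancreas-specific protein disulfide isomerase, had 7673 CPM in the members and 65.3 CPM in the other barcodes, 118-fold (104 to 133). Aqp12, a water channel of acinar cells, had 1512 and 12.8 CPM, and Erp27, an ER chaperone-like protein, 1451 and 13.2 CPM. Slc39a5, a zinc transporter, had 443 and 2.95 CPM, and Hamp2, a hepcidin, 1020 and 8.34 CPM. Tmed6 and Tmed11, cargo receptors of the early secretory path, had 1310 and 224 CPM in the members and 13.0 and 1.47 CPM in the other barcodes. The kallikrein Klk1b21 had 178 UMIs in the members and 1 in the other barcodes. The 5 genes furthest below the other barcodes were Tcf21 and Sparc of stromal cells, Clec3b, the insulin gene Ins1 and Gm17056; Ins1 had 826 CPM in the members and 25440.4 CPM in the other barcodes.

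Transcription factors of the acinar program stood higher in the members than in the other barcodes. Ptf1a had 85.2 CPM in the members and 0.736 CPM (3 UMIs) in the other barcodes, 116-fold (38.8 to 568). Bhlha15, which scales up the secretory machinery, had 206 and 3.93 CPM, and Rbpjl 112 and 1.72 CPM. Foxa3, a forkhead factor, had 85.2 and 2.94 CPM. Of 18 genes on the list 10 could be measured, and 7 of these were at least 2-fold higher in the members and 1 at least 2-fold lower. Xbp1, the factor that widens the endoplasmic reticulum, had 505 and 206 CPM, a log2 ratio that turned to -1.19 per 1000000 of all UMIs. Cckar, the cholecystokinin receptor, had 440 and 4.42 CPM and was 1 of 10 measured secretagogue and calcium genes that was at least 2-fold higher.

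The ER part of the machinery of protein export was high as well on the scale of non-secretory UMIs. At least 2-fold higher in the members were 12 of 20 genes of ER translocation and signal cleavage (median log2 1.27), 11 of 21 of ER folding (1.04) and 10 of 16 of the unfolded protein response (1.83). Per 1000000 of all UMIs these medians turned to -1.21, -1.44 and -0.65, because enzyme transcripts take most of a member's UMIs. The lists of later steps differed less on the scale of non-secretory UMIs. Of 20 genes of ER exit and Golgi transport 6 were at least 2-fold higher and 14 within 2-fold (median log2 0.31). Of 13 measured genes of zymogen granule exocytosis 6 were at least 2-fold higher and 4 at least 2-fold lower (median log2 -0.25). Ssr4, a subunit of the translocon-associated complex, had 1825 CPM in the members and 294 CPM in the other barcodes. P4hb, a protein disulfide isomerase, had 2001 and 172 CPM, and Herpud1, which takes part in degradation at the ER, 1353 and 210 CPM. Hspa5 (BiP), the main ER chaperone, was close on this scale at 1428 and 1200 CPM. Nupr1, a stress-induced nuclear protein, was among the most abundant non-secretory transcripts at 15605.8 CPM, against 716 CPM. Of 17 measured genes of amino acid and creatine metabolism 14 were at least 2-fold higher, with a median log2 of 3.74. Gamt and Gatm, which make creatine, had 682 and 622 CPM in the members and 22.3 and 29.9 CPM in the other barcodes. Phgdh, the first enzyme of serine synthesis, had 612 and 45.9 CPM. Of 18 immediate early and heat shock genes 0 were at least 2-fold higher and 10 at least 2-fold lower; these genes are known to rise in tissue dissociation.

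Transcripts of other cell types were present in the members to different degrees. Endocrine markers (7 genes) had 8245 CPM in the members and 92548.0 CPM in the other barcodes, fibroblast markers (7 genes) 853 and 12385 CPM, and macrophage markers (7 genes) 123 and 1198 CPM. Each of these genes was above 0 in the members. Duct markers (8 genes) had 657 and 244 CPM, a ratio of 2.69 that turned to 0.482 per 1000000 of all UMIs. The 66 members between 30% and 45% had 2847 CPM of these markers and the 1320 members at 65% or above 390 CPM. Muc1, a membrane mucin on their list, had 235 and 6.13 CPM. The keratins Krt8 and Krt18, of duct and acinar cells alike, were at 487 and 626 CPM in the members. T or NK cell markers (6 of 7 genes in the table) had 262 CPM in the members and 192 CPM in the other barcodes, a ratio of 1.36 that turned to 0.244 per 1000000 of all UMIs. Endothelial markers (6 genes) had 17.9 CPM in the members and 76.3 CPM in the other barcodes, and neutrophil markers (5 genes) 46.9 and 457 CPM. In each of these lists 1 gene was at 0 in the members, Cdh5 of endothelial cells and Cxcr2 of neutrophils.

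T or NK, B and red cell markers stood higher in members of low rule share. Members between 30% and 65%, 287 in number, had 630 CPM of the T or NK markers, and the 1320 members at 65% or above had 85.9 CPM. At least 3 UMIs of T, NK or B cell markers were found in 85 of the 287 (29.6%) and in 8 of the 1320 (0.606%). Red cell markers had 75020 and 6827 CPM in the same groups of members. Fibroblast markers differed less, at 1148 and 712 CPM, and mesothelial markers were at 19.0 and 31.1 CPM. No doublet caller was run and no barcode was removed as a doublet, so the members of low share were not told apart from droplets with more than 1 cell.

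Apart from the enzymes, the transcripts that varied most among members included many of other cells. In 1060 members thinned to 500 non-secretory UMIs, 34 of 320 genes had a variance ratio of at least 2. The largest were 96.8 for Hba-a1, 88.2 for Hbb-bs and 48.8 for Gcg, globins and glucagon, and 6 of the 10 largest were globins, Gcg or Cd74, an antigen presentation gene. In the 780 of them at 65% or above these ratios were 6.60, 2.18 and 0.998, and 19 genes had 2 or more. Malat1, a nuclear noncoding RNA, had a ratio of 20.4 there (21.5 in all 1060), with a UMI in 48.8% of members and as many as 92 of 500. Reg2 had 5.91, Mt1, a metallothionein, 4.84 and mt-Co3, a mitochondrial subunit of cytochrome oxidase, 5.10. In 4 groups of members by UMIs, shallowest to deepest, the secretory share was 82.5%, 83.0%, 82.2% and 83.3%, and Pdia2 had 7650, 7721, 7294 and 7828 CPM. Hbb-bs differed more, at 4518, 4105, 10210 and 20470 CPM.

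The acinar barcodes of early KIC gave the closest comparison in the series. Their secretory genes took 67.2% of UMIs, and those of the normal members 82.9%. Of 36 secretory genes with at least 1000 UMIs over both, 27 had a share of secretory UMIs within 1.5-fold. Above that in early KIC were Dmbt1 (0.334% of secretory UMIs in early KIC acinar barcodes and 0.0987% in normal members, 3.38-fold), Reg1 (5.09% and 1.93%, 2.63-fold), Klk1, a tissue kallikrein (1.48% and 0.670%), and Ctrc (0.329% and 0.152%). Below it were Pnlip (2.84% and 4.70%), Try4 (2.61% and 4.09%), Amy1, Amy2a2 and Amy2a4. Ctrb1 remained the leading gene at 13.5% in early KIC acinar barcodes and 18.2% in normal members.

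Outside the secretory genes 3682 genes had at least 50 UMIs over both sets. Of these 302 (8.20%) were at least 2-fold higher in early KIC acinar barcodes and 269 (7.31%) at least 2-fold lower, with an all-gene median log2 ratio of -0.05. Per 1000000 of all UMIs that median was 0.89, since non-secretory transcripts made up more of an early KIC barcode, and 1578 genes were higher and 53 lower. Each ratio is 1.92 times as large on that scale, so the genes named below as 2-fold lower keep their direction there. Many lose the call, among them Pdia2 (log2 -0.90 there), Hamp2 (-0.84), Aqp12 (-0.56), Herpud1 (-0.40), Rplp1 (-0.21) and Tmed6 (-0.17). With acinar barcodes taken at a rule share of 50% the count was 158 higher and 342 lower. Of the 302 higher genes 217 stood below their level in the other early KIC barcodes and 85 above it. Of the 269 lower genes 209 stood at or above the other normal barcodes. Age, genotype, depth and the free RNA of each suspension differ between these 2 libraries. Y-linked transcripts differ too, with 0 UMIs in early KIC acinar barcodes and 34 in normal members, so the sex and number of mice may differ. The parts of all these in the differences were not tested.

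Reg lectins, secreted in pancreatitis, had the highest median log2 ratio of the 21 gene lists outside the secretory and marker lists, 4.25 over 6 measured genes. Reg3a had 4831 CPM in early KIC acinar barcodes and 72.2 CPM in normal members, 66.9-fold (55.5 to 81.3). Reg3b had 19541.2 and 646.6 CPM, 30.2-fold (28.3 to 32.3), and Reg3g 2966 and 112 CPM, 26.5-fold (22.7 to 31.2). Reg2 had 30652.3 and 2242 CPM, 13.7-fold (13.2 to 14.2). Reg3d was at 1143 and 716 CPM, 1.60-fold, and Reg1 at 1.11-fold in CPM. Reg1 is on the secretory list, and its share of secretory UMIs was 2.63-fold higher in early KIC. Of all UMIs it had 3.42% in early KIC acinar barcodes and 1.60% in normal members. Thus 4 of 6 measured Reg genes were at least 2-fold higher in CPM, and each of these 4 also stood above the other early KIC barcodes, where Reg3b had 556 CPM. In the normal library Reg2 and Reg3g were among the 10 genes that most set the members above the other barcodes, at 3630 and 181 UMIs. The Reg genes are a family of related sequences. Of them Reg1 alone was examined for shared transcript ends, and 0 of its 302 windows were shared with another gene. Whether the counts of the other Reg genes are uncertain one by one was not tested.

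Of 9 measured duct and progenitor genes 4 were at least 2-fold higher and 0 at least 2-fold lower, and the median log2 ratio was 0.69. Sox9, the factor of duct cells and acinar-to-ductal change, had 208 CPM in early KIC acinar barcodes and 46.3 CPM in normal members, 4.48-fold (3.23 to 6.22). Spp1 (osteopontin) had 1325 and 310 CPM, 4.28-fold, Hes1, a Notch target, 156 and 58.0 CPM, and Epcam 105 and 51.9 CPM. Epcam lost the 2-fold call at a rule share of 50% (log2 0.46), with at least 500 genes (0.96) and at matched depth (0.86). Spp1, Hes1 and Epcam stood below the other early KIC barcodes, which had 2629, 238 and 153 CPM, and Sox9 above them, at 107 CPM there. Muc1 was at 144 and 235 CPM, and Krt8 and Krt18 were within 2-fold. The acinar injury list, which holds Reg genes too, had 15 measured genes, of which 9 were past 2-fold upward and 0 downward (median log2 1.28), and 4 of the 9 stood below the other early KIC barcodes. Clu, a secreted chaperone, was at 6564 and 3922 CPM.

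The acinar program was lower in part on the scale of non-secretory UMIs. None of the lower genes named in this paragraph kept the 2-fold call per 1000000 of all UMIs. Bhlha15 had 84.6 CPM in early KIC acinar barcodes (33 UMIs) and 206 CPM in normal members (334 UMIs), a ratio of 0.410 (0.278 to 0.587). Of 8 measured acinar transcription factors it was the 1 past 2-fold at the settings used here, and per 1000000 of all UMIs its log2 ratio was -0.34. Ptf1a was at 66.6 and 85.2 CPM, a ratio of 0.782 (0.493 to 1.195), Rbpjl at 0.711 (0.469 to 1.05) and Foxa3 at 0.962 (0.634 to 1.42), intervals that include 1. Rbpjl was past 2-fold lower in 3 alternatives that kept few of the 487 early KIC acinar barcodes. Its log2 was -1.34 with early KIC barcodes at least as deep as the shallowest normal member (120 kept). It was -1.25 with at least 500 genes (133 kept) and -1.08 at a rule share of 60% (47 kept). Foxa3 was at -1.18 at 60%. These values in alternatives have no interval. Pdia2 had 2145 and 7673 CPM, a ratio of 0.280 (0.260 to 0.300), Aqp12 536 and 1512 CPM, 0.354, and Hamp2 297 and 1020 CPM, 0.292. Herpud1 (0.394), Tmed6 (0.462) and Prdx4, an ER peroxiredoxin (0.483), were past 2-fold too. Tmed11 had 87.2 and 224 CPM, a ratio of 0.389 (0.265 to 0.553). By list, 20 of 20 measured genes of ER translocation were within 2-fold, 18 of 20 of ER folding, 13 of 14 of the unfolded protein response and 17 of 20 of ER exit and Golgi transport, where Tmed6 and Sec23b, a COPII coat protein (0.491), were lower and Golga4, a Golgi protein (2.47), higher. Of 17 measured genes of amino acid and creatine metabolism 6 were at least 2-fold lower and 0 higher, with a median log2 of -0.82 that turned to 0.12 per 1000000 of all UMIs. Among the 6 were Gamt (0.485), Gnmt, a glycine methyltransferase (0.426), and the amino acid carriers Slc38a5 (0.485) and Slc7a8 (0.452). At a rule share of 50% Tmed6, Prdx4, Gnmt, Slc38a5 and Slc7a8 were no longer past 2-fold. Cckar was at 0.745, and at a log2 of -1.17 at a rule share of 60%, with 47 early KIC barcodes.

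**Figure D4:**
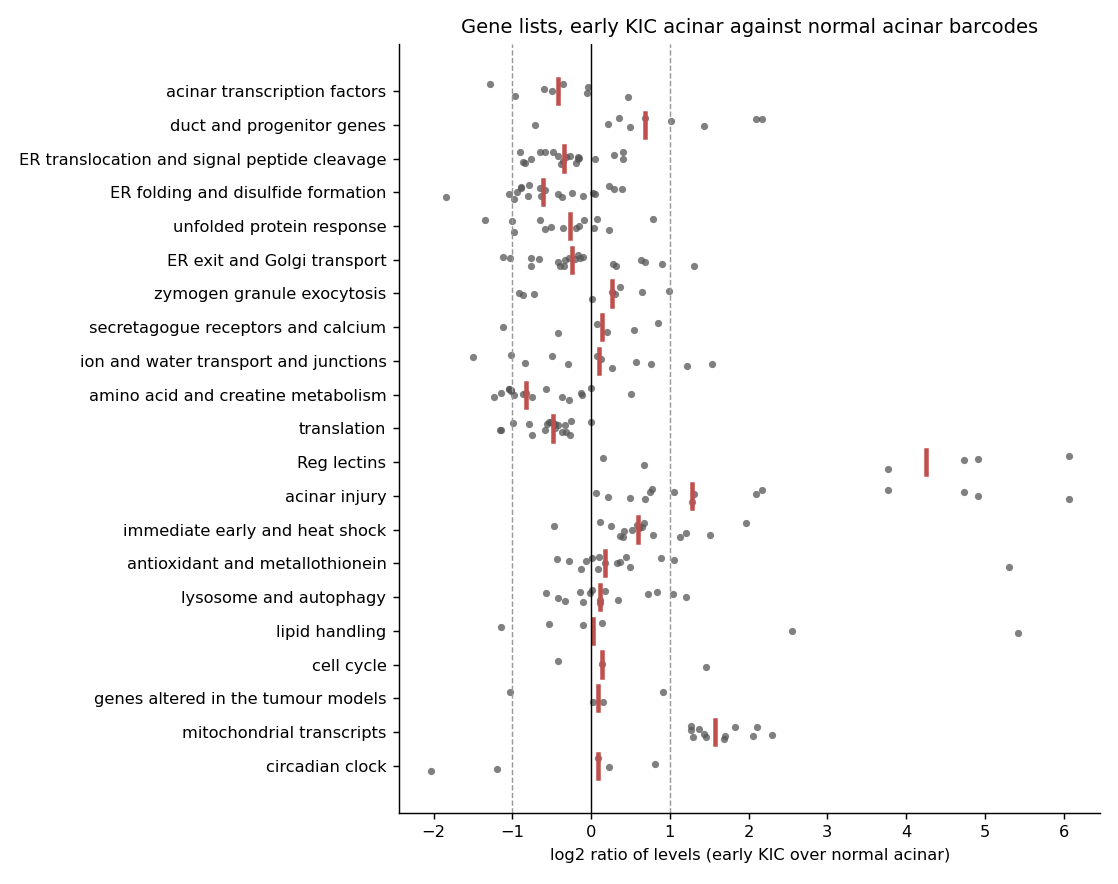
Log2 ratio of levels, early KIC acinar over normal acinar (horizontal axis), for each gene with at least 50 UMIs over both sets, by gene list (vertical axis). Points are genes, red bars are list medians and dashed lines mark 2-fold; the 12 measured mitochondrial transcripts lie to the right of the upper line and the 20 genes of ER translocation lie between the lines.

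All 12 measured mitochondrial transcripts were at least 2-fold higher in early KIC acinar barcodes, with a median log2 of 1.57. mt-Co3 had 19879.5 CPM in early KIC acinar barcodes and 4763 CPM in normal members, and mt-Cytb, cytochrome b, 8758 and 2031 CPM. Mitochondrial genes made up 6.29% of non-secretory UMIs in early KIC acinar barcodes and 1.80% in normal members, and 2.96% and 2.21% in the other barcodes of the same libraries. The 84 ribosomal protein genes made up 22.6% of non-secretory UMIs in early KIC acinar barcodes and 33.7% in normal members, a direction that turned as a share of all UMIs (7.41% and 5.76%). In the other barcodes of the same libraries they made up 15.05% and 18.2%. Rplp1 had 5972 and 13294.4 CPM and Rps2 1689 and 3723 CPM. Mitochondrial share is also a sign of RNA quality, and its part in the other differences was not tested. Of 16 immediate early and heat shock genes 4 were at least 2-fold higher, Fosb, Zfp36, Ier3 and Hspa1a, with a median log2 over the list of 0.59, and 3 of the 4 stood below the other early KIC barcodes. Fosb lost the call at a rule share of 50% (log2 0.87) and 60% (0.75).

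**Figure D5:**
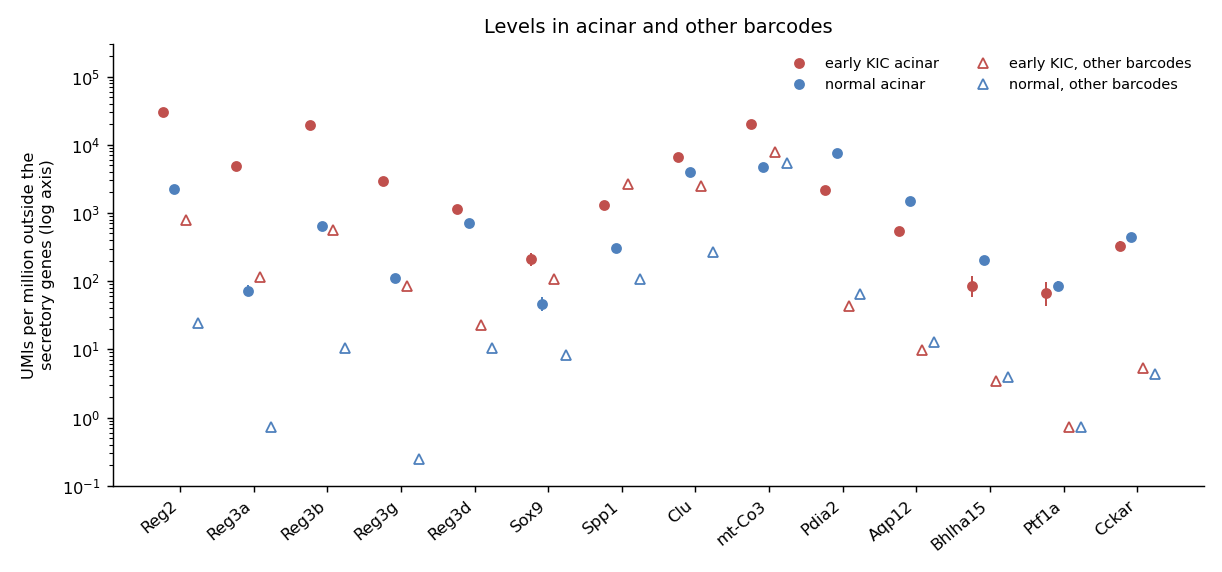
Levels of 14 genes (vertical axis, UMIs per 1000000 non-secretory UMIs, log axis) in early KIC acinar, normal acinar, other early KIC and other normal barcodes, left to right within a gene. Circles are acinar barcodes with exact Poisson intervals, triangles are other barcodes; of the 5 Reg genes plotted, Reg2, Reg3a, Reg3b and Reg3g are more than 10-fold higher in early KIC acinar than in normal acinar barcodes.

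Transcripts of other cell types differed between the acinar sets as well. Macrophage markers (7 genes) had 1922 CPM in early KIC acinar barcodes and 123 CPM in normal members, 15.6-fold, fibroblast markers (7 genes) 2384 and 853 CPM, endocrine markers (7 genes) 17921 and 8245 CPM and endothelial markers (6 genes) 449 and 17.9 CPM. In the other early KIC barcodes these 4 lists had 5833, 8806, 116314.1 and 485 CPM. T or NK markers had 59.0 and 262 CPM, B cell markers (4 of 5 genes in the table) 7.69 and 157 CPM and red cell markers (5 genes) 5862 and 28957 CPM. In the other barcodes of early KIC and normal pancreas T or NK markers had 42.1 and 192 CPM. There B cell markers had 5.16 and 230 CPM and red cell markers 4117 and 41344 CPM. The genes that most set the sets apart by their intervals include many of these. Above 2-fold were the chemokine Ccl8, with 50 UMIs in early KIC acinar barcodes and 0 in normal members (at least 69.2-fold against a floor of 3 UMIs over the group), Rbp7, Plvap, Igfbp3 and Fabp4, which stood at 174, 205, 167 and 238 CPM in early KIC acinar barcodes and at 0.618, 2.47, 2.47 and 5.56 CPM in normal members. The predicted genes Gm26870 and Gm10800 had 173 and 64 UMIs in early KIC acinar barcodes and 2 each in normal members. In the other barcodes they stood at 166.6 and 50.1 CPM in early KIC and at 3.4 and 0.74 CPM in normal pancreas. Reg3a, Reg3b and Reg3g were the other 3 of the 10. Among the 10 lowest were the lymphocyte genes Cd2, Cd79a, Cd79b, Ccr7 and Ly6d, with 1, 2, 0, 11 and 0 UMIs in early KIC acinar barcodes and 106, 135, 70, 341 and 56 in normal members, and the globins Hba-a1 and Hbb-bs. Rpl29 (0.119), Gm6576 (0.112) and Vps37b (0.172) completed them. Rpl29 stood at 149 and 1246 CPM in the acinar barcodes and 151 and 700 CPM in the other barcodes of the same libraries, and Vps37b at 56.4 and 327 CPM in the acinar and 46.8 and 258 CPM in the other barcodes. For Rpl29 and Vps37b, and for Gm26870 and Gm10800 above, the libraries thus differed in every barcode class examined. The macrophage and lymphocyte values moved with the differences of this comparison, and their part in the other genes was not tested.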

How the data were processed

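The values are UMI counts per gene and barcode as deposited; per the submitters' processing notes the authors made them with Cell Ranger 2.1.1 on GRCm38. Nothing states reads per UMI, annotation release or strand use (not given in the sources used here). The deposited tables list 27998 genes, 27645 of them matched by identifier to GENCODE M21. Acinar barcodes held 1189416 UMIs in early KIC and 9480064 in normal pancreas. The members, gene lists and alternatives were chosen with earlier results of these data known.

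UMIs were summed over barcodes. Secretory genes are given as percent of UMIs and other genes per 1000000 non-secretory UMIs (390150 in early KIC acinar barcodes, 1619330 in normal members), called at 2-fold with at least 50 UMIs; 0 counts as 3 in a ratio. Proportions have Clopper-Pearson, levels Poisson and ratios conditional binomial intervals at 95%, which cover counting error alone. Named are the 15 rule genes, the members of each list with most UMIs or past 2-fold, the genes with the most extreme interval bounds (10 higher and 5 lower against other barcodes, 10 each way for early KIC against normal) and the most variable genes; Xist and Y-linked genes were left out of that choice. Of the listed genes 6 are not in the gene table. Variances used barcodes thinned to 500 UMIs (seed 1). Calculations used Python 3.11.15, numpy 2.4.6, scipy 1.17.1, pandas 2.3.3 and matplotlib 3.10.9, and the ratio and variance steps were tested on simulated data. Library totals and intervals set the precision; no replicate exists. Alternatives were the rule threshold, filters on genes and mitochondrial share, the deepest barcodes, averaging, scale, UMI minimum and thinning.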

Additional observations from a re-analysis of the deposited data

How the results depend on the processing

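No paired analysis was possible because each group has 1 library and no replicate number. The acinar share of kept barcodes in normal pancreas was 63.5% at a rule threshold of 50%, 60.1% at 60% and 42.2% with at least 500 genes, a filter that removes enzyme-rich barcodes with few genes. The secretory share of member UMIs was 82.1% at 20%, 84.7% at 50%, 85.6% at 60%, 80.8% with at least 500 genes, 83.0% with at most 5% mitochondrial UMIs, 82.3% without the deepest 5% of members, 82.5% as a mean over members and 84.5% without members holding 3 or more marker UMIs of 7 other cell types, all outside a counting interval that is very narrow. Genes past 2-fold between members and other barcodes numbered 3576, and 7728 per 1000000 of all UMIs (141 higher, 7587 lower), 1439 at a minimum of 200 UMIs and 1238 with barcodes thinned to 1000 UMIs, where fewer genes were tested. Between early KIC and normal acinar barcodes they numbered 571, and 1631 per 1000000 of all UMIs (1578 higher, 53 lower), 1484 at a minimum of 20 UMIs, 145 at 200, 193 after thinning and 294 where the acinar level also had to reach that of the other barcodes (85 higher, 209 lower). The split was 158 higher and 342 lower at a threshold of 50%, 471 and 286 at 20%, 152 and 446 at 60%, 195 and 273 with at least 500 genes, 427 and 331 as a mean over barcodes, 170 and 261 without members holding marker UMIs, and 244 and 393 with early KIC barcodes at least as deep as the shallowest normal member. Overdispersed secretory genes numbered 12, and 24 at 2000 secretory UMIs and 20 at a bound of 1.5. The median log2 of duct and progenitor genes in members over other barcodes was 1.17 and turned to -0.55 at 50%, -0.56 at 60% and -1.31 per 1000000 of all UMIs. On that scale the medians of ER translocation (-1.21), ER folding (-1.44), the unfolded protein response (-0.65) and ion and water transport (-0.55) turned too, as did Xbp1 (-1.19), Mt1 (-0.58) and Sec61g (-0.89), because the divisor then holds the enzyme transcripts. Of 721 values of genes named between early KIC and normal acinar barcodes 0 that were past 2-fold on either side changed direction, 45 lost the 2-fold call and 15 gained it. The gained calls were lower for Rbpjl, Foxa3, Muc1 and Cckar, and higher for Reg3d, Clu, Krt8, Krt18, Xbp1 and Nupr1. Tmed6 was at -0.67 and -0.33 and Gnmt at -0.58 and -0.38 (log2) at 50% and 60%, and S100a6 at 0.76 without members holding marker UMIs; the cause was not tested. The alternatives at 60%, without marker-holding members, at matched depth and by the level of other barcodes were chosen after seeing the data.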
